A study of Mus musculus with 9 samples.

Results

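The 8 genes described here make up the core of major histocompatibility complex (MHC) class II antigen presentation, and they were found by symbol among the 31053 genes of the deposited tables. They are H2-Aa, H2-Ab1 and H2-Eb1 (genes of classical class II chains), Cd74 (the invariant chain), Ciita (the class II transactivator) and H2-DMa, H2-DMb1 and H2-DMb2 (the chains of the peptide exchange factor H2-DM). All 8 symbols matched a row, and all 8 passed the filter on low counts in each of the 16 comparisons below. The measurements are single-cell RNA counts from cells of the gut lamina propria (LP), the connective tissue under the epithelium, labelled as sorted for CD11b, an integrin of myeloid cells. All mice are labelled C57BL/6 males of 7 to 8 weeks. The 9 libraries were 2 of wildtype specific pathogen-free (SPF) colon, 2 of wildtype germ-free (GF) colon, 2 of small intestine from wildtype mice labelled normal, 1 of wildtype colon after dextran sodium sulfate (DSS), 1 of colon after DSS from mice labelled Nlrc4 deficient, and 1 of wildtype SPF colon after a mixture of antibiotics. DSS, which injures the colonic epithelium, was given at 2.5% in drinking water for 7 days or at other doses that are not listed, followed by plain water. The antibiotics were ampicillin at 1 g/L, vancomycin at 0.5 g/L, neomycin at 1 g/L and metronidazole at 1 g/L for a week or longer. The study's methods describe pooled mice. No label ties a replicate library to animals of its own, so p-values measure the spread between these libraries, which may be technical.

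Class II molecules are pairs of an alpha and a beta chain that carry peptides from endocytosed proteins to the cell surface, where CD4 T cells read them. New chains assemble with the invariant chain, which blocks the groove and steers the complex to endosomes. There cathepsins cut the invariant chain down to a fragment, and H2-DM exchanges that fragment for peptides, while H2-O (H2-Oa with H2-Ob) restrains H2-DM. Ciita does not bind DNA itself and acts through factors held on the X and Y boxes of class II promoters. Dendritic cells, macrophages and B cells make class II without induction, and interferon-gamma induces it in many other cells, gut epithelium among them.

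Of the 8 genes, 6 lie on chromosome 17 of mm10 (GRCm38), with H2-DMa at chr17:34119541-34139101, H2-DMb2 at chr17:34143307-34151555, H2-DMb1 at chr17:34153072-34160230, H2-Ab1 at chr17:34257689-34269419, H2-Aa at chr17:34282744-34287823 and H2-Eb1 at chr17:34305867-34316674. Ciita lies on chromosome 16. The promoters of H2-Aa, H2-Eb1, H2-DMb1 and H2-DMb2, and of H2-Oa and H2-Ob, are shown as stretches of 60 bases on the gene's own strand, from the RefSeq promoters of GRCm38.p6. Capitals mark the Y box core (CCAAT, which reads ATTGG on this strand) and, where present, the letters AACNNATGATG, the end of an X box.
H2-Aa (chr17:34287857-34287916, minus strand): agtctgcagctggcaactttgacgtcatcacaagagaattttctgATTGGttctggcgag
H2-Eb1 (chr17:34305763-34305822, plus strand): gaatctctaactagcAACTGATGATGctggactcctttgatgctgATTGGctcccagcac
H2-DMb1 (chr17:34153085-34153144, plus strand): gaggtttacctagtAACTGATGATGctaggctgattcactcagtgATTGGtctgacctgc
H2-DMb2 (chr17:34145114-34145173, plus strand): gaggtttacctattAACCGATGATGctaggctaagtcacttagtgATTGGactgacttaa
H2-Ob (chr17:34238803-34238862, plus strand): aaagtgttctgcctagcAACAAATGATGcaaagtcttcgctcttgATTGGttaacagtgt
H2-Oa (chr17:34092291-34092350, plus strand): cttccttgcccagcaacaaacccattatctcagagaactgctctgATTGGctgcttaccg

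CCAAT was searched on both strands in 300-base promoters and was present in 7 of the 8 class II promoters searched, against 37.4% of all 32851 promoters. The looser X box pattern CCNAGNNAC, also on both strands and at any position, was in 5 of the 8 and in 17.3% of all promoters. In H2-Aa its match lay at bases -180 to -172 from the start site, with the Y box core at -48 to -44. In H2-DMb2 its matches lay at -192 to -184 and -1 to 7, with the Y box core at -90 to -86. All of these matches are outside the stretches shown, so in neither promoter does the pattern mark an X box beside the Y box. AACNNATGATG holds the letters that the promoters of H2-DMb1, H2-DMb2, H2-Eb1 and H2-Ob share in their best-matched window of 11 bases, so its presence in those 4 is by construction. It was chosen after the promoters had been read, does not overlap CCAAT in the stretches shown, and was in 0.137% of all promoters on either strand. In H2-DMb1 and H2-DMb2 20 bases separate the end of this X box from the Y box core, against 19 in H2-Eb1 and 17 in H2-Ob. H2-DMb1 and H2-DMb2 are neighbouring near-copies, so reads may have been split between them, and their values are uncertain to that extent. The 8 promoters were those of H2-Aa, H2-Eb1, H2-DMb1, H2-DMb2, H2-Oa and H2-Ob, and of H2-DMa at 2 start sites. Cd74, H2-Ab1 and Ciita were not among them.

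Each library held 13243317 to 64453601 unique molecular identifiers (UMIs, counted molecules), and 31759 of 37123 deposited barcodes passed the filters of at most 15% mitochondrial UMIs and at least 200 genes. Cells were gated by 16 lists of 8 marker genes, none of them a class II gene, and 24387 cells were assigned. The 8 classes of antigen-presenting cells and epithelium held 15872 cells. Macrophage-like cells (2650) had a median of 261 CPM (UMIs of a gene per 1000000 UMIs of the class in a library) for Adgre1 (F4/80) and 682 for Csf1r, and monocyte-like cells (3811) had 104 and 440. Flt3 and Zbtb46, genes of conventional dendritic cells, were present in the type 1 (820 cells), type 2 (2627) and mature (622) dendritic cell-like classes. Itgam (CD11b) had a median of 239 CPM in macrophage-like cells and 162 in type 2 dendritic cell-like cells, but 23.9 in mature and 14.4 in type 1 dendritic cell-like cells, 20.5 in B cell-like (4099) and 6.6 in epithelial-like cells (1122), so these last 4 classes show little transcript of the marker they were sorted on. Pairs of libraries shared 0 to 20 barcodes. In the library labelled Nlrc4 deficient, Nlrc4 stood at 35.2 CPM in monocyte-like and 35.0 in macrophage-like cells, above the 13.2 to 28.7 of the SPF and DSS libraries. A 3′ tag can lie outside a deletion and so does not check the genotype.

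The summed level of the 8 genes ordered the classes. Type 2 dendritic cell-like cells ran from 39320.3 to 57198 (median 47101), macrophage-like cells from 28963 to 60231 (43123), and type 1 dendritic cell-like cells from 32306 to 44701 (38084). Mature dendritic cell-like cells ran from 29404 to 48443 (34663), B cell-like cells from 17185 to 24087 (22771) and monocyte-like cells from 10629 to 29838 (16607). These genes took several percent of all molecules in the top 4 classes, whose ranges overlap one another, and every library of those classes lay above every B cell-like library. B cell-like and monocyte-like ranges overlap. Plasmacytoid dendritic cell-like cells, with at least 10 cells in 3 libraries, ran from 13969 to 29069. Epithelial-like cells ran from 344 to 4565 (2060).

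**Figure D1:**
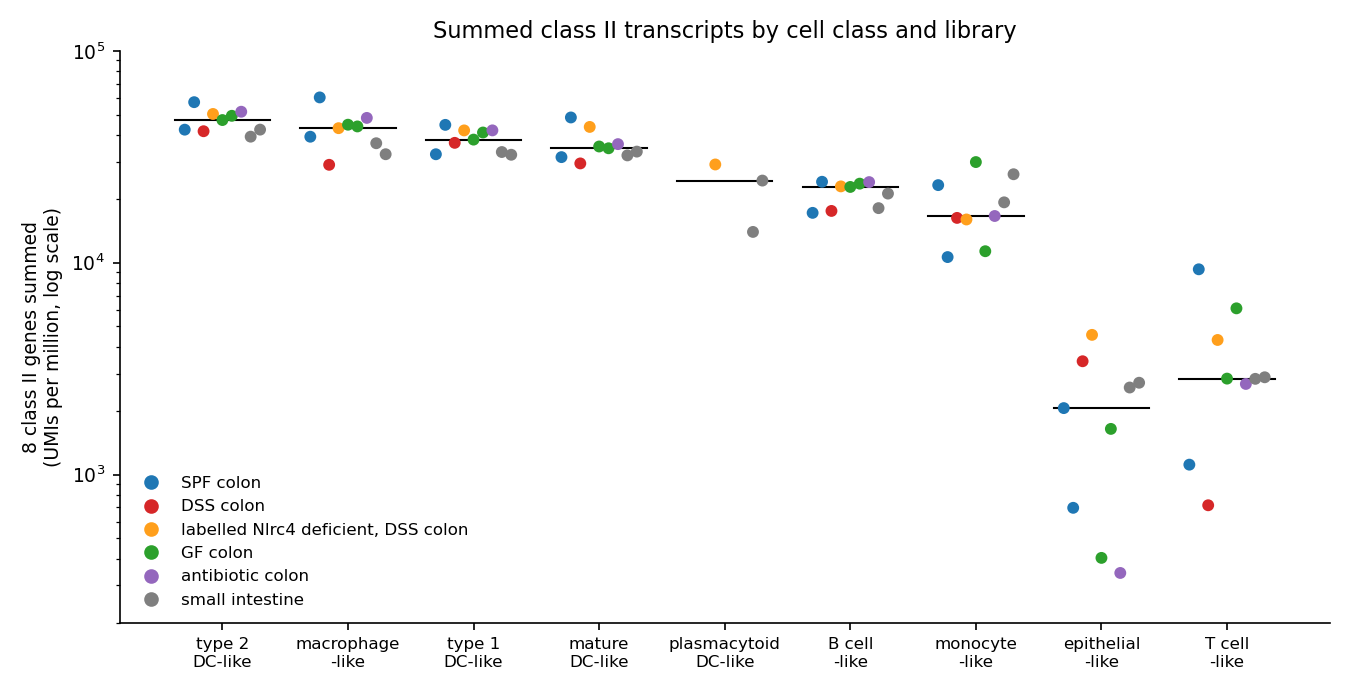
Summed CPM of the 8 class II genes (vertical axis, log scale) in each cell class, 1 dot per library coloured by condition, with lines at the medians. The medians run from 47101 in type 2 dendritic cell-like to 2060 in epithelial-like cells, and epithelial-like dots spread over more than a factor of 10.

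In each of the 8 classes Cd74 was the most abundant member by its median, followed by the classical chains, while the H2-DM genes and Ciita were far lower. In macrophage-like cells Cd74 ran from 10668 to 26584 CPM (median 18308), H2-Aa from 6521 to 12272 (8637), H2-Ab1 from 5972 to 10798 (7860.1) and H2-Eb1 from 4257 to 9213 (5846). Ciita ran from 32.3 to 88.6 (68.0) there, H2-DMa from 398 to 622 (485), H2-DMb1 from 428 to 724 (594) and H2-DMb2 from 22.9 to 83.6 (39.6). The regulator Ciita was thus counted at 68.0 CPM where its target H2-Aa stood at 8637. The counts are 3′ tags, 1 per molecule, so levels of different genes need no scaling by length.

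**Figure D2:**
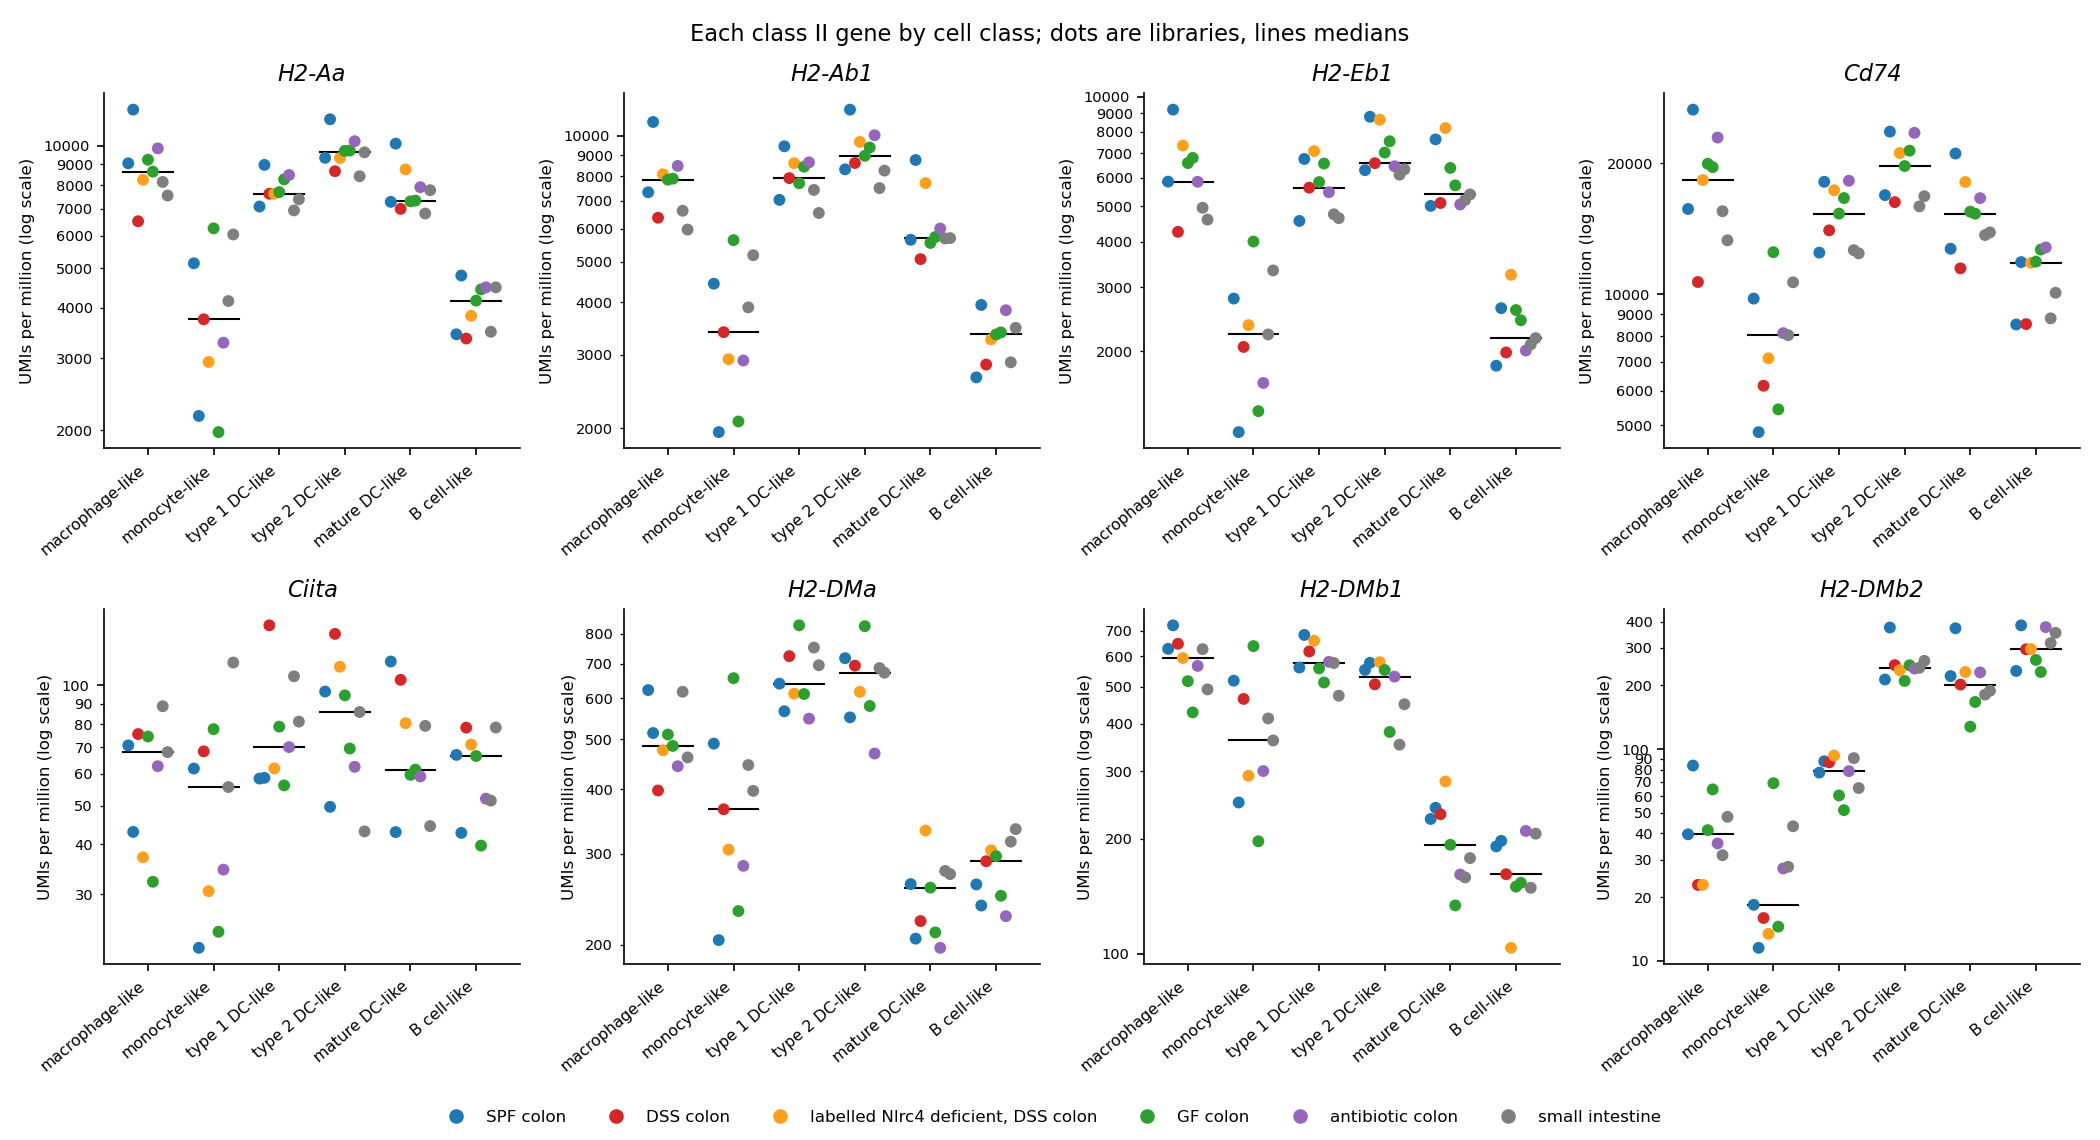
CPM (vertical axes, log scale) of each of the 8 genes by cell class, 1 dot per library coloured by condition, with lines at the medians. H2-DMb2 separates macrophage-like cells (median 39.6) from type 2 dendritic cell-like (242) and B cell-like cells (297), while H2-DMb1 is lowest of these in B cell-like cells (161).

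Gut macrophages are replaced by monocytes that mature in the LP, and class II was compared between the 2 classes within the 9 libraries. Macrophage-like cells had more of 7 of the 8 members than monocyte-like cells, and the background of genes called in either direction was 29.1% of 9279. The median log2 difference of the members was 1.055, against 0.02311 over all genes tested. H2-Eb1 stood at 6157 ± 1541 CPM in macrophage-like and 2332 ± 921 in monocyte-like cells (mean ± SD, n = 9), a log2 difference of 1.45 ± 0.18 (SE, adjusted p = 1.02e-05, edgeR quasi-likelihood test blocked by library). H2-Aa differed by 1.23 ± 0.17, Cd74 by 1.17 ± 0.16 and H2-Ab1 by 1.16 ± 0.17 on the log2 scale. These 4 genes were higher in macrophage-like cells of 9 of 9 libraries. H2-DM genes differed by less, with log2 differences of 0.95 ± 0.25 for H2-DMb2, 0.68 ± 0.13 for H2-DMb1 and 0.50 ± 0.13 for H2-DMa, each higher in 8 of 9 libraries. Ciita did not pass (log2 difference 0.25 ± 0.15, adjusted p = 0.215), at 61.4 ± 19.4 against 54.3 ± 30.1 CPM. Without the second small intestine library Ciita passed, with a log2 difference of 0.40 (adjusted p = 0.0300).

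The ratio between members differed between the 2 classes as well. The 3 H2-DM genes together came to 8.04% ± 1.08 of the classical chains in monocyte-like cells and to 5.08% ± 0.924 in macrophage-like cells (SD, n = 9), higher in monocyte-like cells of 8 of 9 libraries. This ratio was chosen after the values were seen and is given as a description.

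Per cell, macrophage-like cells formed 1 broad range and monocyte-like cells reached down to none. With each cell thinned to 1000 UMIs, the median macrophage-like cell held 31 class II UMIs, and 12 of 2458 cells (0.488%) held none. The median monocyte-like cell held 8, and 17.6% of 3782 held none (1.36% before thinning). The median depth was 4789.5 UMIs in macrophage-like and 8551 in monocyte-like cells, so the unthinned shares are from unequal depths. Among monocyte-like cells, those with 2 or more macrophage markers ran from 18897 to 35193 class II CPM (median 30460.5, 7 libraries with enough cells), and those with none from 6656 to 25513 (14049, 9 libraries). The mean log2 difference within a library was 1.23 ± 0.63 (SD), with the marker-bearing cells higher in 7 of 7. Monocyte-like cells without a Ly6c2 UMI, Ly6c2 being the antigen of fresh blood monocytes, were higher than those with 1 in 7 of 7 libraries, by a mean log2 of 0.60 ± 0.52 (SD). Within the monocyte-like gate, cells with macrophage markers thus carried more class II transcript. Of monocyte-like cells, 12.4% had the minimum of 3 markers and 21.0% led the next class by 1 marker. How far the gate itself sets these values was not tested.

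Type 2 dendritic cells, the CD11b+ dendritic cells of the gut, were set beside macrophages, another class with Itgam transcript. They had more of 7 of the 8 members, where 54.9% of 9852 genes were called, so most genes differed between these classes. The median log2 difference of the members was 0.3203, against -0.007895 over all genes. Most of the differences were small: 0.44 ± 0.10 for H2-DMa, 0.33 ± 0.07 for H2-Ab1, 0.31 ± 0.09 for H2-Eb1, 0.22 ± 0.08 for H2-Aa and 0.22 ± 0.08 for Cd74 on the log2 scale. Ciita stood at 83.0 ± 29.7 against 61.4 ± 19.4 CPM, a log2 difference of 0.49 ± 0.17 (adjusted p = 0.0263, edgeR). H2-DMb2 was the exception in size, at 210 to 375 CPM in type 2 dendritic cell-like and 22.9 to 83.6 in macrophage-like cells, ranges that do not overlap. Its log2 difference was 2.70 ± 0.15 (adjusted p = 4.51e-10). H2-DMb1, its near-copy, did not pass (log2 difference -0.15 ± 0.09, adjusted p = 0.187) and was lower in type 2 dendritic cell-like cells of 8 of 9 libraries by its level. The calls of Cd74, Ciita and H2-Aa depended on single libraries. Cd74 missed the threshold without the DSS library (log2 difference 0.17, adjusted p = 0.0835), the library labelled Nlrc4 deficient (0.22, 0.0518), the second GF library (0.22, 0.0581) or the second small intestine library (0.19, 0.0821). Ciita missed it without the first SPF library (0.50, 0.0503), the DSS library (0.44, 0.0600), the library labelled Nlrc4 deficient (0.34, 0.0846) or the second GF library (0.41, 0.0737). H2-Aa missed it without the second small intestine library (0.18, 0.0518).

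Among dendritic cells, the type 1 class (cells that present to CD8 T cells) had less class II than the type 2 class. Of the members, 5 of 8 were lower, where 51.6% of 9494 genes were called, and the members' median log2 difference was -0.3925 against -0.01071 over all genes. Cd74 fell by 0.50 ± 0.05, H2-Eb1 fell by 0.46 ± 0.05, H2-Aa fell by 0.45 ± 0.05 and H2-Ab1 fell by 0.34 ± 0.05 on the log2 scale from type 2 to type 1, all lower in 9 of 9 libraries. H2-DMb2 again differed most, at 76.8 ± 14.6 against 253 ± 48.7 CPM and a log2 difference of -1.88 ± 0.11 (adjusted p = 2.13e-10). H2-DMa (log2 difference -0.10 ± 0.06), H2-DMb1 (0.09 ± 0.08) and Ciita (-0.19 ± 0.14) did not pass.

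Mature dendritic cells have taken up antigen and travel to lymph nodes, and their class differed from the type 2 class mainly in H2-DM. Of the members, 6 of 8 were lower, where 41.6% of 8770 genes were called, with a median log2 difference of -0.2661 against -0.01485 over all genes. H2-DMa stood at 249 ± 43.9 against 646 ± 105 CPM, a log2 difference of -1.31 ± 0.08 (adjusted p = 8.54e-10). H2-DMb1 stood at 200.4 ± 47.8 against 498 ± 84.8, a log2 difference of -1.26 ± 0.08. The highest mature library (333 for H2-DMa, 282 for H2-DMb1) lay below the lowest type 2 library (469 and 352). The log2 difference was -0.51 ± 0.06 for H2-Ab1 and between -0.29 and -0.20 for Cd74, H2-Aa and H2-Eb1. H2-DMb2 (log2 difference -0.21 ± 0.09, adjusted p = 0.0760) and Ciita (-0.15 ± 0.10, adjusted p = 0.263) did not pass. The H2-DM genes came to 3.33% ± 0.393 of the classical chains in mature and 5.45% ± 0.692 in type 2 dendritic cell-like cells, lower in 9 of 9 libraries, which is a description for the reason given above. H2-Ab1 per H2-Aa, likewise a description, was 1.02 ± 0.0662 in type 1 and 0.791 ± 0.0566 in mature dendritic cell-like cells.

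B cells present the antigen that their own receptor captures. The B cell-like class had less of 7 of the 8 members than type 2 dendritic cell-like cells, where 72.7% of 10245 genes were called. The median log2 difference of the members was -1.542, against 0.03224 over all genes. H2-Eb1 had a log2 difference of -1.93 ± 0.06, H2-DMb1 of -1.88 ± 0.12, H2-Ab1 of -1.79 ± 0.06, H2-Aa of -1.57 ± 0.05, H2-DMa of -1.51 ± 0.07 and Cd74 of -1.17 ± 0.05. Ciita differed least among the members called, at 60.8 ± 14.7 against 83.0 ± 29.7 CPM (log2 difference -0.69 ± 0.15, adjusted p = 0.000802). H2-DMb2 did not pass and had the direction of its log2 difference set by the scaling, at -0.05 ± 0.09 (adjusted p = 0.638) with TMM factors and 0.27 (adjusted p = 0.00803) with library totals. Its level was 306 ± 57.2 CPM in B cell-like and 253 ± 48.7 in type 2 dendritic cell-like cells. The median of all genes moved from 0.03224 with TMM factors to 0.3577 with library totals in this comparison, and from -0.01071 to 0.1496 between the type 1 and type 2 classes.

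**Figure D3:**
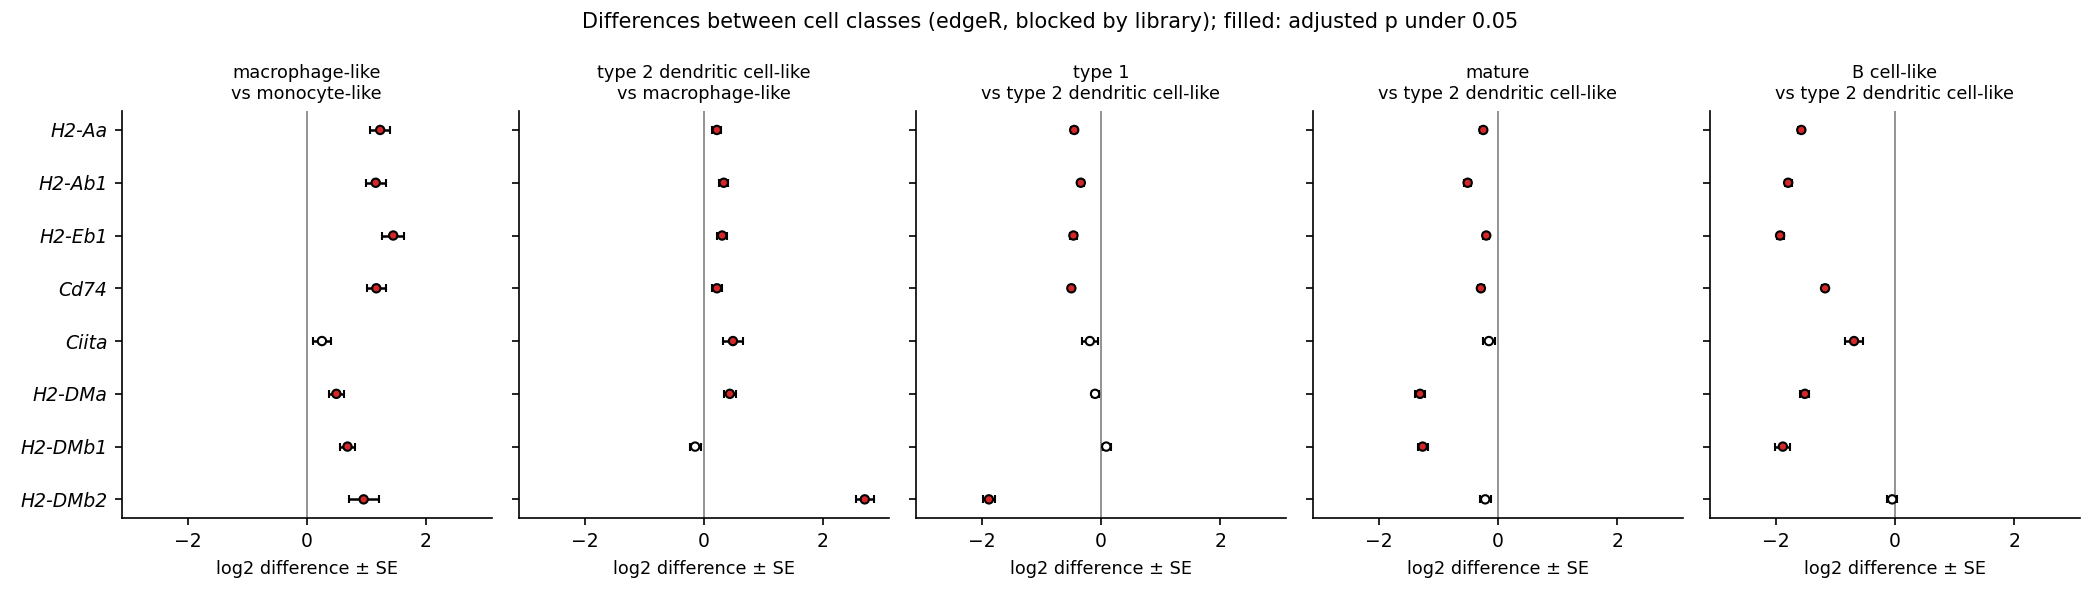
Log2 difference ± SE (horizontal axes) of each of the 8 genes in 5 comparisons between cell classes, with filled dots for adjusted p under 0.05. H2-DMb2 lies far from the other members in type 2 dendritic cell-like against macrophage-like cells (2.70) and near 0 in B cell-like against type 2 dendritic cell-like cells (-0.05), where the other 7 lie between -1.93 and -0.69.

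The cell classes differed in their use of the 2 H2-DM beta chains. The share of H2-DMb2 among H2-DMb1 and H2-DMb2 UMIs ran from 3.41% to 13.1% in macrophage-like cells (median 5.95%), and its median was 6.32% in monocyte-like cells. It ran from 9.13% to 13.6% in type 1 dendritic cell-like cells (12.1%) and from 27.5% to 40.7% in type 2 dendritic cell-like cells (32.9%). It ran from 39.8% to 60.7% in mature dendritic cell-like cells (51.5%) and from 55.1% to 74.1% in B cell-like cells (64.2%). The ranges of type 1, type 2 and B cell-like cells do not overlap, those of type 2 and mature cells meet at their ends, and monocyte-like and macrophage-like ranges overlap. Within a library the share was higher in type 2 dendritic cell-like than in macrophage-like cells by 26.8 ± 4.63 percentage points (SD, n = 9) and in B cell-like than in type 2 dendritic cell-like cells by 30.5 ± 7.14 points. The mature class exceeded the type 2 class by 17.3 ± 5.18 points, and the type 2 class exceeded the type 1 class by 22.2 ± 5.44 points. Each of these 4 differences had the same direction in 9 of 9 libraries. In the stretches printed above, the promoters of both genes hold the X box end and the Y box core at the same spacing. The X box end reads AACTGATGATG in H2-DMb1 and AACCGATGATG in H2-DMb2. The share was chosen for description after the values were seen and carries no test.

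**Figure D4:**
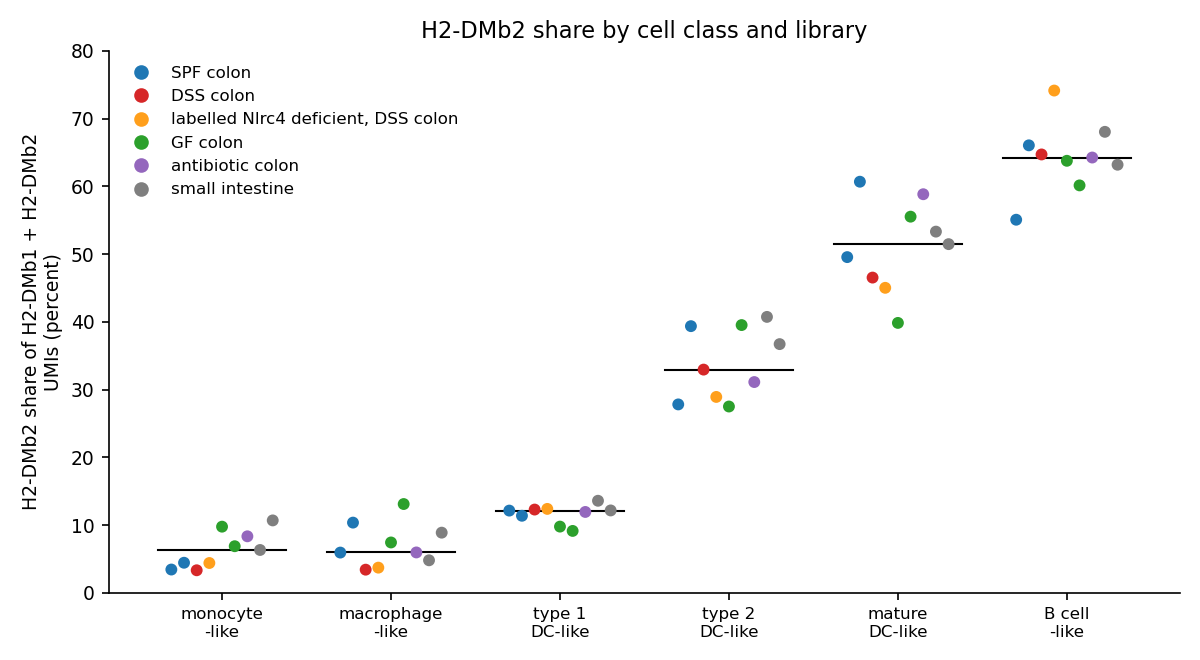
H2-DMb2 as a percent of H2-DMb1 plus H2-DMb2 UMIs (vertical axis) in 6 cell classes, 1 dot per library coloured by condition, with lines at the medians. The medians run from 5.95 in macrophage-like to 64.2 in B cell-like cells, and the dots of a condition follow their class.

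Cd74, which lies on chromosome 18, also varied against its partner chain. B cell-like cells held 2.66 ± 0.268 Cd74 UMIs per H2-Aa UMI and type 2 dendritic cell-like cells 2.02 ± 0.200 (SD, n = 9), higher in B cell-like cells of 9 of 9 libraries. Macrophage-like cells held 2.02 ± 0.261. In plasma cell-like cells, the antibody-secreting end stage of B cells, the ratio had a median of 5.32 (3.57 to 8.70). These ratios are descriptions.

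Epithelial cells can be induced to make class II, and T cells of the mouse, which make next to none, were the reference for free RNA in the droplets. No member passed between epithelial-like and T cell-like cells (edgeR, 0 of 8, with 0 at an unadjusted p under 0.05 and 0 called by DESeq2), where 71.3% of 11882 genes were called, and the log2 differences of the members ran from -0.89 ± 0.62 for H2-Aa to 0.19 ± 0.44 for Ciita. Of epithelial-like cells thinned to 1000 UMIs, 60.2% held no class II UMI (15.3% before thinning, median depth 15595 UMIs), against 61.2% of T cell-like cells (16.1%, median depth 4844.5). The summed level in epithelial-like cells was 2060 and 697 CPM in the SPF libraries, 3427 in the DSS library, 4565 in the library labelled Nlrc4 deficient, 405 and 1644 in the GF libraries, 344 in the antibiotic library and 2576 and 2714 in the small intestine libraries. In T cell-like cells of the same libraries it was 1114 and 9307, 717, 4319, 2838 and 6090.1, 2678, and 2831 and 2879.6. Epithelial-like cells were above T cell-like cells in the first SPF library, the DSS library and the library labelled Nlrc4 deficient, and below them in the other 6. The reference was itself uneven, since 4.08% of T cell-like cells in the second SPF library held 30 or more thinned class II UMIs. In the first small intestine library 8.82% of epithelial-like cells did, where the 90th percentile was 21.4 in epithelial-like and 2 in T cell-like cells. How much of the level in either class came from free RNA was not tested. The upper tail in epithelial-like cells differed between libraries, also between those of 1 condition. The 90th percentile of thinned UMIs was 17.1 and 2 in the SPF libraries, the second from 11 thinned cells, and 1 in both GF libraries. It was 21.4 and 5.9 in the small intestine libraries, 14 in the DSS library, 5.3 in the library labelled Nlrc4 deficient and 1.5 in the antibiotic library. The number of epithelial-like cells ran from 20 to 318. Without the DSS library, H2-Ab1 (log2 difference -1.12, adjusted p = 0.0485), H2-Eb1 (-1.20, 0.0474) and H2-DMa (-0.91, 0.0319) were lower in epithelial-like cells. With clusters in place of the gates 6 members passed, where 8204 of all genes were called, against 8470 with the gates. None of these 6 reversed the sign of its main log2 difference.

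Class II in the absence of a microbiota was measured by comparing GF with SPF colon, 2 libraries each. In macrophage-like cells the summed level was 39299 and 60231 CPM in SPF and 44776 and 43945 in GF colon, so both GF libraries lay between the SPF libraries. With edgeR, 0 of 8 members were called in macrophage-like, monocyte-like, type 2 dendritic cell-like, B cell-like or epithelial-like cells, and the shares of all genes called were 0%, 0%, 0%, 0% and 0%. The members at an unadjusted p under 0.05 numbered 0, 0, 0, 1 and 2. Of all genes tested, 256 of 8464, 193 of 5391, 328 of 9811, 609 of 8410 and 754 of 10963 were under it. DESeq2 called 0 members in each class. Monocyte-like cells stood at 23228 and 10629 in SPF and at 29838 and 11327 in GF colon, the first GF value from 23 cells. Type 2 dendritic cell-like cells stood at 42428 and 57198 in SPF and 47101 and 49325 in GF colon. B cell-like cells stood at 17185 and 24087 in SPF and 22771 and 23600.1 in GF colon. In none of these classes were the GF libraries both outside the SPF range. Cd74 in B cell-like cells had a log2 difference of 0.41 ± 0.18 (adjusted p = 0.669), and H2-DMb1 in epithelial-like cells one of -1.99 ± 0.38 (adjusted p = 0.349). In macrophage-like cells the SE of the log2 differences was 0.27 to 0.44, so changes of that size were not detectable with these libraries. Changes of several times the SE could have been missed as well.

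Small intestine was compared with SPF colon in the same way. Macrophage-like cells stood at 36611 and 32492 class II CPM in the small intestine, both below the SPF colon libraries. Of the 8 members, 0 were called by edgeR in each of the 5 classes, against 0%, 0%, 0.153%, 0% and 3.99% of all genes in macrophage-like, monocyte-like, type 2 dendritic cell-like, B cell-like and epithelial-like cells. At an unadjusted p under 0.05 the members numbered 1, 0, 0, 1 and 0. Of all genes tested, 602 of 8464, 228 of 5391, 999 of 9811, 291 of 8410 and 2140 of 10963 were under it. DESeq2 called 0 members in each class. H2-Eb1 in macrophage-like cells had the lowest p there, with 4778 against 7530 CPM (means of 2 and 2 libraries) and a log2 difference of -0.73 ± 0.30 (adjusted p = 0.666). Type 2 dendritic cell-like cells stood at 39320.3 and 42448 in the small intestine, B cell-like cells at 18089 and 21188, and monocyte-like cells, from 37 and 42 cells, at 19263 and 26142. Of these 3 classes, no class had both small intestine libraries outside the range of the SPF colon libraries. In epithelial-like cells 2576 and 2714 lay above the SPF colon values of 2060 and 697, and H2-Ab1 had a log2 difference of 1.26 ± 0.65 (adjusted p = 0.338).

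The remaining conditions had 1 library each and allow no test. Their intervals are exact Poisson intervals at 95% and cover counting error only. Macrophage-like cells of the DSS library held 28963 class II CPM (28686 to 29242), the lowest of the 9 libraries and 0.58 of the SPF mean of 49765 ± 14801 (SD, n = 2). The ratio was 0.74 against the first SPF library, 0.48 against the second, and 0.73 with clusters in place of gates. In the library labelled Nlrc4 deficient the level was 43123 (42856 to 43391), and in the antibiotic library 48209 (47634 to 48788), both between the SPF libraries. Type 2 dendritic cell-like cells held 41715 (41181 to 42255) in the DSS library, below the second SPF library at 57198 and within counting error of the first at 42428 (42135 to 42723), 50319.7 in the library labelled Nlrc4 deficient and 51555 in the antibiotic library. Monocyte-like cells held 16268, 15992 and 16607 in that order, each between the SPF libraries at 10629 and 23228. With clusters in place of gates, the ratio of the library labelled Nlrc4 deficient to the SPF mean in monocyte-like cells went from 0.94 to 0.36. Ciita in macrophage-like cells was 75.5 CPM in the DSS library, 37.1 in the library labelled Nlrc4 deficient and 62.8 in the antibiotic library, against 70.7 and 43.0 in SPF. The interval of the DSS library (62.0 to 91.1) overlaps that of the first SPF library (59.9 to 83.0), so a difference in Ciita between these was not detectable at this depth. The level of the second SPF library (43.0) lay below the interval of the DSS library.

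**Figure D5:**
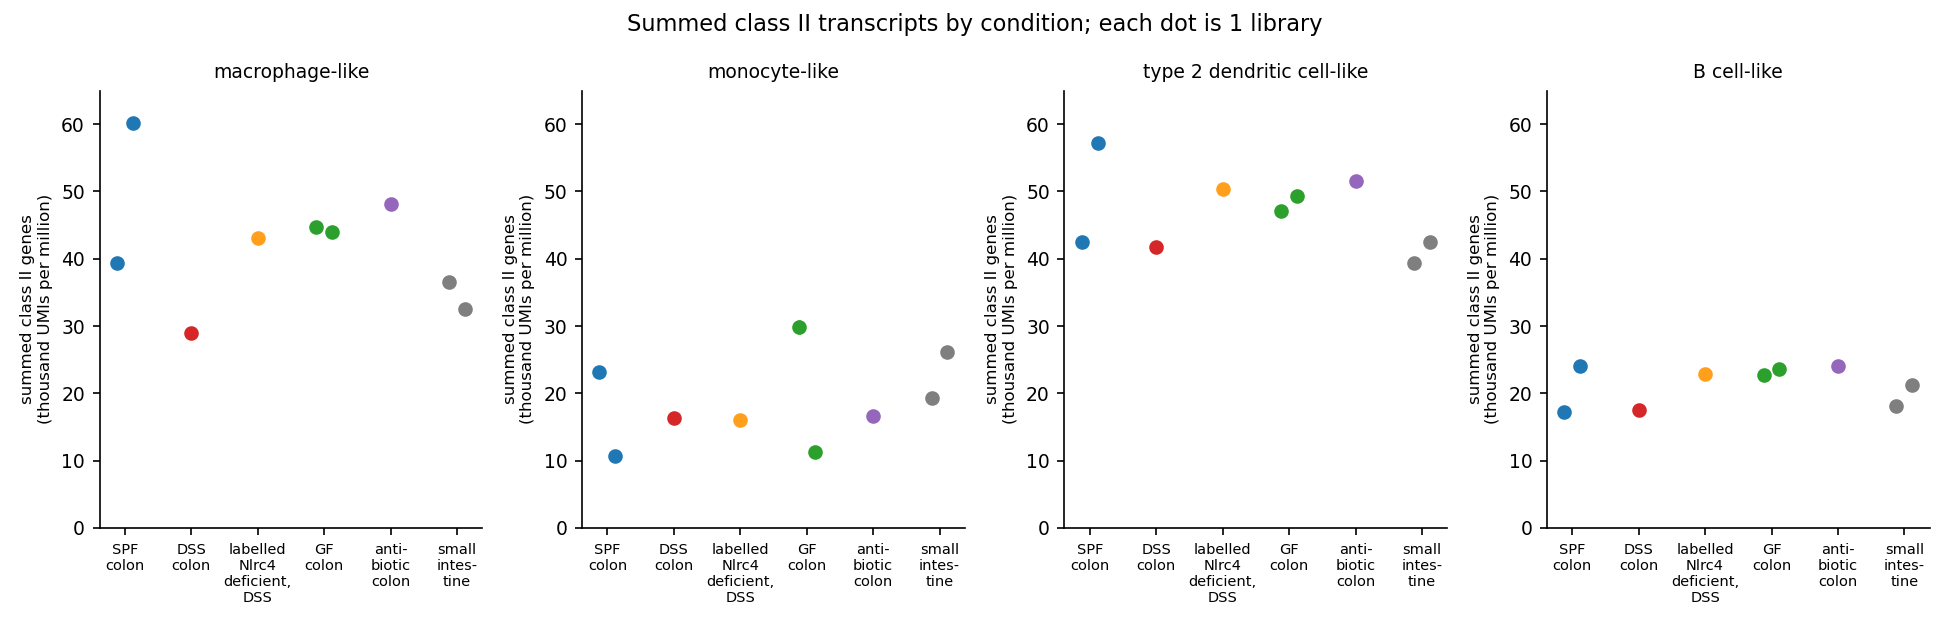
Summed CPM of the 8 class II genes (vertical axes) by condition, with a panel for each cell class and 1 dot per library. In macrophage-like cells the DSS library (28963) and both small intestine libraries (36611 and 32492) lie below the SPF colon libraries (39299 and 60231), and the GF libraries lie between these.

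The other genes of the pathway were read from lists fixed with the members. Their counts between classes stand beside shares of all genes called of 29.1% (macrophage-like against monocyte-like) to 72.7% (B cell-like against type 2 dendritic cell-like). Of 5 genes listed for the class II locus, 3 had a row. H2-Ea and H2-Ea-ps had none, so an alpha chain partner of H2-Eb1 was not measured, and H2-Eb1 is read as transcript only. H2-Oa and H2-Ob, the chains that restrain H2-DM, were higher in type 2 dendritic cell-like than in macrophage-like cells by log2 differences of 3.57 ± 0.18 and 2.72 ± 0.19, as H2-DMb2 was. H2-Ob was higher in B cell-like than in type 2 dendritic cell-like cells (1.53 ± 0.10) while H2-Oa was lower (-0.49 ± 0.08). The median level of H2-Oa was 188 CPM in both classes, so its log2 difference depends on the scaling. H2-Eb2, a second E beta chain, was higher in mature (4.23 ± 0.18) and in B cell-like cells (4.06 ± 0.18) than in type 2 dendritic cell-like cells, and lower in type 1 (-1.52 ± 0.36). Its median was 4.0 CPM in type 2 and 1.2 in type 1 dendritic cell-like cells, near the floor, so the sizes of these differences are uncertain. The chains of the locus thus did not move as a block.

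Lysosomal processing had 5 genes with a row out of 6 listed. All 5 were lower in type 2 dendritic cell-like than in macrophage-like cells, where Ctsb had a log2 difference of -2.64 ± 0.10, Ctsl of -3.07 ± 0.15, Ctsd of -3.11 ± 0.17 and Lgmn, an endosomal protease, of -3.24 ± 0.17. Of the 5, 4 were higher in macrophage-like than in monocyte-like cells, among them Lgmn (1.61 ± 0.11) and Ctss (0.33 ± 0.10), the cathepsin that finishes the cutting of the invariant chain. All 5 were lower in type 1 than in type 2 dendritic cell-like cells (Ctss -1.42 ± 0.06). In mature dendritic cell-like cells 1 was higher (Lgmn 0.92 ± 0.13) and 2 lower (Ctsb -0.39 ± 0.11), and in B cell-like cells 2 were higher (Ctsd 0.69 ± 0.21) and 3 lower (Ctsb -2.25 ± 0.11). Between macrophage-like and type 2 dendritic cell-like cells the proteases thus differed in the direction opposite to the class II members called.

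The differences of the transcription factors of the X and Y boxes were mostly small. Of 7 genes (the Rfx and Nfy subunits and Creb1), 1 was called between macrophage-like and monocyte-like cells (Creb1, log2 difference -0.41 ± 0.11), 1 between type 2 dendritic cell-like and macrophage-like cells (Rfxap, 0.38 ± 0.11), and 1 between mature and type 2 dendritic cell-like cells (Nfya, 0.47 ± 0.15). Between type 1 and type 2 cells 2 were higher (Rfxap 0.44 ± 0.12, Nfyb 0.40 ± 0.13), and in B cell-like cells 1 was higher (Nfyc 0.52 ± 0.12) and 3 lower (Creb1 -0.38 ± 0.11, Rfxap -0.34 ± 0.13, Nfya -0.31 ± 0.13). These 3 had median levels of 79.5, 31.7 and 34.5 CPM in B cell-like and 78.6, 29.7 and 35.4 in type 2 dendritic cell-like cells. Their differences are near the shift of all genes between scalings in this comparison (0.03224 with TMM factors, 0.3577 with library totals). In the B cell-like and the macrophage-like against monocyte-like comparisons, every factor named differed by less than the classical chains of the same comparison. Between type 2 dendritic cell-like and macrophage-like cells Rfxap differed by more than the classical chains. In mature cells Nfya differed by more than H2-Aa and H2-Eb1, and in type 1 cells Rfxap and Nfyb differed by more than H2-Ab1. Between epithelial-like and T cell-like cells 3 were lower, among them Creb1 (-1.67 ± 0.13).

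Among genes of interferon-gamma signalling, Irf1 (log2 difference 0.94 ± 0.16) and Jak2 (0.68 ± 0.10) were higher and the receptor chain Ifngr1 (-0.96 ± 0.13) was lower in mature than in type 2 dendritic cell-like cells. Of the 6 genes listed, 2 were lower in macrophage-like than in monocyte-like cells (Irf1 -0.87 ± 0.12, Jak2 -0.38 ± 0.09). In type 2 dendritic cell-like against macrophage-like cells 2 were higher (Jak2 1.34 ± 0.11, Ifngr1 0.57 ± 0.13) and 1 lower (Jak1 -0.30 ± 0.09). In type 1 against type 2 cells 1 was higher and 3 lower, and in B cell-like cells 2 were higher and 3 lower. In epithelial-like against T cell-like cells 1 was higher and 5 lower (Ifngr1 -2.51 ± 0.14).

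March1, March8 and Cd83 bear on surface turnover, since the March ligases mark class II for removal and Cd83 counters March1. In type 2 dendritic cell-like against macrophage-like cells March8 (-4.53 ± 0.38) and March1 (-1.35 ± 0.18) were lower and Cd83 (0.55 ± 0.19) was higher on the log2 scale. The median of March8 was 0.53 CPM in type 2 dendritic cell-like and 18.6 in macrophage-like cells. That is near the floor in the type 2 class, so the size of this difference is uncertain. March1 was lower in mature (-2.03 ± 0.33) and higher in type 1 dendritic cell-like cells (1.22 ± 0.16) and B cell-like cells (0.68 ± 0.19) than in type 2 cells. Its median in mature cells was 2.0 CPM, also near the floor. March8 was higher in macrophage-like than in monocyte-like cells (1.07 ± 0.28) and in epithelial-like than in T cell-like cells (3.76 ± 0.40). Of 4 costimulation genes, all 4 were lower in type 1 and in B cell-like than in type 2 dendritic cell-like cells (Cd80 -1.49 ± 0.12 and -3.57 ± 0.19), 2 were higher in mature cells (Cd40 1.45 ± 0.12, Icosl 0.49 ± 0.15), and 1 was higher in macrophage-like than in monocyte-like cells (Cd40 0.37 ± 0.12). In type 2 dendritic cell-like against macrophage-like cells 2 were higher (Cd80 1.05 ± 0.20, Cd86 0.60 ± 0.12) and Cd40 was lower (-0.84 ± 0.13), and in epithelial-like cells 2 were lower than in T cell-like cells. No gene of these lists was called in any of the 10 comparisons of GF colon or small intestine with SPF colon. Of all genes, 3.99% were called there in epithelial-like and 0.153% in type 2 dendritic cell-like cells of small intestine, and 0% in the other comparisons.

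The genes whose profile was most like that of the summed members were sought among 9683 genes over 117 sums of a class in a library. Cd86, a costimulatory ligand, came first (Pearson r = 0.915), followed by Cd83 (0.902), Gm6377 (0.897), Ly86 (0.870), Irf5 (0.858), Unc93b1 (0.855), Pkib (0.853), Gm2a (0.847), Fgd2 (0.844) and Napsa (0.842). The sums share libraries, so r is a description across classes and libraries. Cd86 had a median of 289 CPM in type 2 dendritic cell-like, 187 in macrophage-like, 153 in monocyte-like, 223 in B cell-like and 23.7 in T cell-like cells.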

How the data were processed

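The authors aligned 10x Genomics 3′ (version 3) reads to mm10 with Cell Ranger (STAR 2.5.1b per the submitters' processing notes, software 3.0.2 per the file headers) and deposited UMI counts per gene and cell, without normalization. The cells were sorted on CD11b, and the methods describe pooled mice. Counts were read from all 9 libraries. Cells with over 15% mitochondrial UMIs or under 200 genes were left out. A cell joined the class with the most detected markers, of 8 per list, at least 3 and more than any other class, which left 7372 cells (23.2%) unassigned. Scrublet marked 133 cells (0.419%), too few to be taken as working, and they were kept. The members and gene lists were chosen with earlier results of these data known.

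Within each class the UMI counts of a library were added up (at least 10 cells) and tested over all genes with edgeR 4.0.16 in R 4.3.3 (quasi-likelihood test after filterByExpr, with TMM factors, at a false discovery rate of 0.05 by Benjamini-Hochberg). Comparisons between classes were blocked by library. Conditions were compared with the 6 replicated libraries of SPF colon, GF colon and small intestine. DESeq2 1.42.0, Leiden clusters, a stricter gate (4 markers, lead of 2), a stricter cell filter (10%, 500 genes), doublet removal, no filter on low counts, no block, a replicate block, library totals and leaving out each library were the alternatives. CPM use a class's own total. The tests were also run on simulated counts in which unchanged genes had the same mean share in every library. Those counts hold no library effect, so they do not check the library block. Named genes were the 8 members, up to 4 genes of smallest p per list, and the 10 genes most alike by Pearson's r of log2(CPM + 10), among genes reaching 50 in a sum. Shares of cells were compared after thinning to 1000 UMIs (hypergeometric draw, Python 3.11.15, scanpy 1.11.5). Intervals cover counting error only. A result for 1 gene of the pathway lists is not reported here.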

Additional observations from a re-analysis of the deposited data

Results flagged for a closer look

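Plasma cell-like cells, which no comparison above used between conditions, had a higher summed class II level in both GF than in both SPF colon libraries. The summed members stood at 6274 CPM (45 cells) and 7718 (13 cells) in the GF libraries, against 2969 (202 cells) and 4372 (44 cells) in the SPF colon libraries, so the ranges do not overlap. Thinned to 1000 UMIs, 4.44% of 45 cells and 8.33% of 12 cells in the GF libraries held 30 or more class II UMIs, and the 90th percentiles were 5.6 and 12.8 in GF and 5 and 7 in SPF. The medians were 2 and 3 UMIs in GF and 1 and 2.5 in SPF, and 33.3% and 8.33% of GF cells held none, against 23.4% and 22.7% in SPF. The difference carries no test.

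The summed members differed between small intestine and SPF colon in opposite directions in a pair of classes. The log2 ratio of the group means was 0.94 in epithelial-like cells, where both small intestine libraries (2576 and 2714 CPM) lay above both SPF colon libraries (2060 and 697). Of these 4 epithelial-like levels, all but that of the first SPF library lay below the level of T cell-like cells in the same library, and the part of free RNA in them was not tested. It was -0.53 in macrophage-like cells, where both small intestine libraries (36611 and 32492) lay below both SPF colon libraries (39299 and 60231). The difference between the classes was not tested.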

How the results depend on the processing

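Of 222 counts of members called under an alternative, 215 stayed within 1.5 times the reported count and 7 did not. Without the library block, 2 members were called between type 2 dendritic cell-like and macrophage-like cells and 3 between mature and type 2 dendritic cell-like cells. Between epithelial-like and T cell-like cells Leiden clusters gave 6, and leaving out single libraries gave 0 to 3. In epithelial-like cells, no filter on low counts gave 2 for GF and 4 for small intestine against SPF colon, and the stricter gate gave 3 for small intestine. All genes called in these fits numbered 287, 1472 and 622 in that order. The cause was not tested. Leaving out single libraries gave 7 to 8 members between macrophage-like and monocyte-like cells and 5 to 7 between type 2 dendritic cell-like and macrophage-like cells. Of single members, 441 values stayed, 19 passed newly, 18 no longer passed, and 1 reversed (H2-DMb2 in B cell-like against type 2 dendritic cell-like cells, 0.27 with library totals, an alternative added after seeing the data). For single libraries in monocyte-like cells, leaving out an SPF library moved the ratio to SPF colon between 0.70 and 1.53 for DSS, 0.69 and 1.505 for the library labelled Nlrc4 deficient (0.36 with Leiden clusters) and 0.71 and 1.56 for antibiotics.

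Samples of the same replicate number deviated together in GF and SPF colon (correlations of 0.16 to 0.35 over 5 classes) but not throughout in pairs with small intestine (-0.12 to 0.21). No label ties the numbers to a shared animal or day, so they were not taken as pairs, and with the replicate block 0 members were called in all 10 comparisons between conditions. Over all genes, small intestine against SPF colon in type 2 dendritic cell-like cells gave 15 calls, 145 with DESeq2, 535 without the filter, 218 with the block and 28 with clusters. In epithelial-like cells it gave 437, against 1472 without the filter, 810.0 with the block, 687 with library totals and 250 with the stricter cell filter, and GF gave 0, against 85 with DESeq2, 287 without the filter, 39 with the block, 44 with library totals and 19 with the stricter cell filter. In macrophage-like cells the small intestine comparison gave 0, against 31 with DESeq2, 251 without the filter and 4 with the block, and GF gave 0, against 3 and 61. Without the library block the calls between classes fell to 1517 (macrophage-like against monocyte-like), 3080 (type 1 against type 2), 2367 (mature against type 2) and 3656 (type 2 against macrophage-like). Few cells limit GF monocyte-like (23) and epithelial-like (20) sums.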
